A study of Mus musculus with 31 samples.

Results

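Transcription factors that T cells switch on when their antigen receptor is triggered were followed through 31 mouse libraries, in CD4+ T cells and whole spleens before and during lymphoma. The 10 genes were chosen by name, out of 48211 gene symbols found in both kinds of count table, as the NR4A nuclear receptors Nr4a1, Nr4a2 and Nr4a3, the early growth response factors Egr1, Egr2 and Egr3, the calcium-regulated factor Nfatc1, the paired factors Irf4 and Batf, and the surface protein Cd69. All 10 had a row in every table and passed the filter on low counts in each comparison. Triggering of the T cell receptor raises calcium, which frees the phosphatase calcineurin to send NFAT into the nucleus, and it starts the ERK cascade, which switches on the EGR genes. NR4A receptors need no known ligand, follow the strength of the receptor signal and, with EGR2 and EGR3, are known for restraining T cells that are stimulated for long. BATF and IRF4 bind DNA together and follow more slowly, and CD69 holds freshly activated cells in the tissue.

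The mice are of the strain given as C57B/6. Among the pre-lymphoma libraries, all of CD4+ T cells, 2 came from normal mice of genotype CD4-Cre-ERT2(WT) and 6 from pre-lymphoma mice with 2 genotype labels. In 3 libraries the label joins CD4-Cre-ERT2(WT) and the fusion genotype Vav1Myo1ffl/wt;CD4CreERT2 (Vav1Myo1f) by a slash, and in 3 it names the fusion genotype on both sides. The sense of the slash is not given, so that the first is here named control/fusion, the second fusion/fusion. The CD4-Cre set held CD4+ T cells of 3 normal mice, labelled CD4-Cre(WT), and 4 tumor mice, labelled CD4-CreVav1Myo1f fl/wt, with whole spleens of 3 mice of each kind. The CD4-CreERT2 set held CD4+ T cells of 2 normal mice, labelled CD4-CreERT2 (WT), and 2 tumor mice, labelled CD4-CreERT2Vav1Myo1f fl/wt, with whole spleens of 3 mice of each kind. Every mouse named here, controls included, carries a Cre recombinase under control of Cd4, which also acts in the developing thymocytes that pass through a CD4+ stage; CreERT2 is the form that needs tamoxifen, and the labels name no dose or age. The fusion joins Vav1, an exchange factor below the T cell receptor, to the myosin gene Myo1f.

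Levels are in CPM, the usual count of a gene per fixed total of gene counts in the library, scaled by TMM over the libraries of a set. Gene counts per library summed to 12632196 to 37568512. Myo1f, the 3' partner of the fusion, stood at 70.7 and 83.0 CPM in the pre-lymphoma controls and between 143 and 180.0 CPM in the 6 fusion libraries, and at 270.3 and 472 CPM in CD4-CreERT2 tumor CD4+ cells against 192 and 216 CPM in their controls. In the other 3 tumor comparisons tumors and controls overlapped in Myo1f. Summed levels of 8 T cell markers were 4080 to 7532 CPM in CD4+ libraries and 877 to 2568 CPM in spleen, where 8 B cell markers summed to 838 to 8696 CPM. Markers of macrophages and monocytes were not absent from the CD4+ libraries, with a sum of 491 to 6435 CPM over 10 genes, nor were those of plasma cells, at 354 to 7634 CPM over 6 genes, and of B cells, at 58.2 to 2698 CPM. The tumor libraries VM98 of CD4+ cells, with the highest number of genes detected (34546), and VM294 of spleen, with the lowest (18368), stood apart. The number VM645 is borne by control libraries and by a tumor library with another genotype label, so CD4-Cre tumors are also compared without it. Nothing in the labels says whether libraries of a group came from separate experiments, so p-values speak of the spread between libraries alone, which may be technical. In bulk samples fewer cells of a type and less RNA per cell cannot be told apart.

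Promoters are shown because the 3 NR4A genes and Egr2 passed in both pre-lymphoma fusion groups, whereas Batf passed in fusion/fusion cells alone. Irf4 likewise passed in fusion/fusion cells alone, and its window is counted below but not shown. The choice follows these results and gives no test of a contrast between the patterns. Windows of 300 bases, from 250 before to 50 after the start of transcription, were found in the RefSeq promoter table (GRCm38.p6) for 6 of the 10 genes, Nr4a1, Nr4a2, Nr4a3, Egr2, Irf4 and Batf. The Nr4a1 window lies at chr15:101266596-101266895 on the plus strand, that of Nr4a2 at chr2:57123954-57124253 on the minus strand, that of Nr4a3 at chr4:48045055-48045354 on the plus strand, that of Batf at chr12:85686470-85686769 on the plus strand and, of 5 windows listed for Egr2, the one shown at chr10:67537619-67537918 on the plus strand. Capitals mark the core of the cyclic AMP response element, TGACG on either strand, bound by CREB and ATF factors, and the CArG box, bound by serum response factor.
Nr4a1: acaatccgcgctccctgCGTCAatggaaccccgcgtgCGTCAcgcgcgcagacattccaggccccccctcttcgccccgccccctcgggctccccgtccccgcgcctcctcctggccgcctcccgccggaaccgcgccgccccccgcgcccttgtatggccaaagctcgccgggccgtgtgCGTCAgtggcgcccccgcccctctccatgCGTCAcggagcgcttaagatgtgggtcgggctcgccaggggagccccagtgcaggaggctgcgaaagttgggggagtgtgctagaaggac
Nr4a2: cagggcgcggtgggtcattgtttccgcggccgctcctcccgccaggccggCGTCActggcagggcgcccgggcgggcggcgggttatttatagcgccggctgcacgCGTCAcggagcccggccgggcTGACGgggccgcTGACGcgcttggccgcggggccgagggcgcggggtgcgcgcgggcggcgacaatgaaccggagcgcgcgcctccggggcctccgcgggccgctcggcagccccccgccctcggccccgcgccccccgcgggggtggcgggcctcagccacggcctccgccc
Nr4a3: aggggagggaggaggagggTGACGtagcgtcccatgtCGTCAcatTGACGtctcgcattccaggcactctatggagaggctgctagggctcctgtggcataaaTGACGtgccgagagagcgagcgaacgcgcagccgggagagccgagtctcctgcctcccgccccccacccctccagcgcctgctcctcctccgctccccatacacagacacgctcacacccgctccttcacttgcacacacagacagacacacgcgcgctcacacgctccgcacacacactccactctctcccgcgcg
Egr2: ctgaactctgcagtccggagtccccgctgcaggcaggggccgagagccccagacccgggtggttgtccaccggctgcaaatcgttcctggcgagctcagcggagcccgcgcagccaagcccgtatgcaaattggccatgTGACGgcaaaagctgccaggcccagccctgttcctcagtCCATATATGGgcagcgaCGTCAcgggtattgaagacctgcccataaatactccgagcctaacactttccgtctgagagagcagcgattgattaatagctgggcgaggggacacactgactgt
Batf: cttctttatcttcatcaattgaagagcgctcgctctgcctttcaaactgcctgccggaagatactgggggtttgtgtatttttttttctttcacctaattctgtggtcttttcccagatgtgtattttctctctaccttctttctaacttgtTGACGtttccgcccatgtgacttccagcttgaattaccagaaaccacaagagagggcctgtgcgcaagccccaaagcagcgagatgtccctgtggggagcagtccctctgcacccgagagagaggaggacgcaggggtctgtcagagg

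The 3 NR4A windows held 4 such cores each. Of the 32851 promoter windows of the same length, 0.23% hold at least 4 and 20.8% hold at least 1. The cutoff of 4 equals the count in these windows, and the shares were not matched for GC, so they give no test of enrichment. The Egr2 window shown, picked because it holds the marked motifs, has 2 cores and 1 CArG box, a motif found in 1.6% of all windows. The windows at the next starts, at 67537620 and 67537680, overlap it and hold the same, while the one at 67535249 has 0 of either and the one at 67537316 has 0 cores, 1 CArG box and 3 NFAT cores. The Batf window held 1 core, and the Irf4 window held none. The full palindrome TGACGTCA, present in 1.8% of all windows, was in none of these 6. Both strands were searched. The NFAT core GGAAA, which 61.3% of all windows contain, had no match in the Nr4a1 and Nr4a3 windows, 1 in those of Nr4a2, Egr2 and Irf4 and 2 in that of Batf. The EGR site GCGNGGGCG occurred once in Nr4a1 and once in Nr4a2, against 5.6% of all windows, and the NR4A element AAAGGTCA in none, against 1.5%. An AP-1 site, TGANTCA, was in none of the 6 windows, against 7.8% of all, and 1 MEF2 element lay in the Nr4a2 window, against 3.2%. The GC share was 72.3% in Nr4a1, 81.7% in Nr4a2 and 64.7% in Nr4a3, above the median of 52.7% over all windows. A match is a run of letters and was not tested as a site.

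In the pre-lymphoma CD4+ T cells all 3 NR4A receptors rose, and they rose in both fusion groups. Gene positions are those of the CD4-CreERT2 count tables, on GRCm38 (mm10). Nr4a1 (ENSMUSG00000023034, chr15:101266846-101274792, plus strand), the most abundant of them per length, was at 89.7 and 65.8 CPM in the controls, at 134, 126 and 135 CPM in control/fusion and at 123, 124 and 138 CPM in fusion/fusion cells. Every fusion library was above both controls, and the fusion groups overlapped. The log2 fold change was 0.76 ± 0.12 (standard error, SE) in control/fusion (adjusted p = 0.0022) and 0.72 ± 0.12 in fusion/fusion cells (adjusted p = 0.00068), or 1.69 and 1.65 times the control level. Nr4a2 (ENSMUSG00000026826, chr2:57106830-57124003, minus strand), the rarest member in these cells per length, was at 2.62 and 2.04 CPM in the controls, 5.17, 4.13 and 4.76 CPM in control/fusion and 7.43, 5.92 and 6.36 CPM in fusion/fusion cells. Its 3 groups did not overlap and stood in the order of the fusion labels. It rose by 1.01 ± 0.20 in control/fusion (adjusted p = 0.0076) and by 1.5 ± 0.20 in fusion/fusion cells (adjusted p = 0.00024), but the step between the fusion groups, 0.49 ± 0.17, did not pass (adjusted p = 0.071). Nr4a3 (ENSMUSG00000028341, chr4:48045153-48086447, plus strand) was at 26.6 and 17.4 CPM in the controls, 46.9, 48.6 and 45.5 CPM in control/fusion and 40.9, 37.9 and 47.3 CPM in fusion/fusion cells. Both fusion groups lay above the controls and overlapped each other. Nr4a3 rose by 1.09 ± 0.16 (adjusted p = 0.0016) and by 0.93 ± 0.16 (adjusted p = 0.00088), respectively.

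The 3 EGR factors likewise rose in both fusion groups. Egr1 (ENSMUSG00000038418, chr18:34859823-34864984, plus strand), an immediate target of ERK, was at 118 and 80.6 CPM in the controls, 144, 143 and 137 CPM in control/fusion and 141, 119.9 and 128 CPM in fusion/fusion cells. Its control TA018 came close to the lowest fusion library, without overlap. Its changes were the smallest of the 6 NR4A and EGR genes, 0.51 ± 0.13 (adjusted p = 0.024) and 0.39 ± 0.13 (adjusted p = 0.036). Egr2 (ENSMUSG00000037868, chr10:67535475-67542188, plus strand) was at 34.7 and 22.5 CPM in the controls, 51.2, 47.9 and 44.7 CPM in control/fusion and 56.9, 50.4 and 52.9 CPM in fusion/fusion cells, with both fusion groups above the controls. It rose by 0.74 ± 0.15 (adjusted p = 0.0076) and by 0.91 ± 0.15 (adjusted p = 0.00082). Egr3 (ENSMUSG00000033730, chr14:70077445-70080157, plus strand), which acts with Egr2, was at 46.4 and 38.0 CPM in the controls, 80.1, 75.3 and 67.0 CPM in control/fusion and 67.8, 59.9 and 68.5 CPM in fusion/fusion cells. Again no fusion library overlapped a control. Egr3 rose by 0.81 ± 0.11 (adjusted p = 0.0012) and by 0.63 ± 0.11 (adjusted p = 0.00095). None of the 6 NR4A and EGR genes differed between the fusion groups at the threshold, with log2 differences of -0.18 to 0.49 and adjusted p of 0.071 to 0.83.

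Batf and Irf4 passed in the fusion/fusion cells, and the step between the fusion groups passed the test for these 2 members. Batf (ENSMUSG00000034266, chr12:85686669-85709087, plus strand), a basic leucine zipper factor, was at 45.3 and 41.8 CPM in the controls, 50.4, 48.3 and 58.9 CPM in control/fusion and 80.7, 89.5 and 84.3 CPM in fusion/fusion cells. The 3 groups did not overlap. The difference of control/fusion from control was 0.28 ± 0.09 (adjusted p = 0.060; 0.028 with no filter on low counts and 0.045 without TA021), whereas fusion/fusion cells rose by 0.96 ± 0.09 over the control (adjusted p = 3.8e-05) and by 0.68 ± 0.08 over control/fusion cells (adjusted p = 0.00075). Irf4 (ENSMUSG00000021356, chr13:30749226-30766927, plus strand), its partner on DNA, was at 66.0 and 68.2 CPM in the controls, 81.6, 79.2 and 70.5 CPM in control/fusion and 102, 95.0 and 96.5 CPM in fusion/fusion cells. It showed the same order without overlap. The change was 0.20 ± 0.08 in control/fusion (adjusted p = 0.094; 0.042 without TA022), and Irf4 rose by 0.55 ± 0.08 in fusion/fusion cells over the control (adjusted p = 0.00031) and by 0.35 ± 0.07 over control/fusion (adjusted p = 0.0073).

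Nfatc1 (ENSMUSG00000033016, chr18:80606205-80713071, minus strand), the NFAT factor that is itself induced by NFAT, had the smallest change of the 10 in fusion/fusion cells over the control. It was at 281 and 218 CPM in the controls, 302, 309.7 and 301 CPM in control/fusion and 333, 282 and 312 CPM in fusion/fusion cells. The lowest fusion library was barely above the control TA018. Nfatc1 rose by 0.31 ± 0.11 in fusion/fusion cells (adjusted p = 0.033), and the difference in control/fusion cells was 0.29 ± 0.11 (adjusted p = 0.078). An antisense gene model overlaps Nfatc1 in the GENCODE M21 annotation and strand was not stated for the counts, so its reads cannot be told apart from those of Nfatc1. The membrane protein CD69 went the other way. Cd69 (ENSMUSG00000030156, chr6:129267325-129275436, minus strand) was at 129 and 156 CPM in the controls, 125, 132 and 108 CPM in control/fusion and 99.99, 98.5 and 107 CPM in fusion/fusion cells, so that the fusion/fusion libraries were below all others while the other groups overlapped. Cd69 fell by 0.48 ± 0.10 on the log2 scale in fusion/fusion cells (adjusted p = 0.0031). Its difference was -0.23 ± 0.10 in control/fusion cells (adjusted p = 0.14) and -0.26 ± 0.09 between the fusion groups (adjusted p = 0.079).

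**Figure D1:**
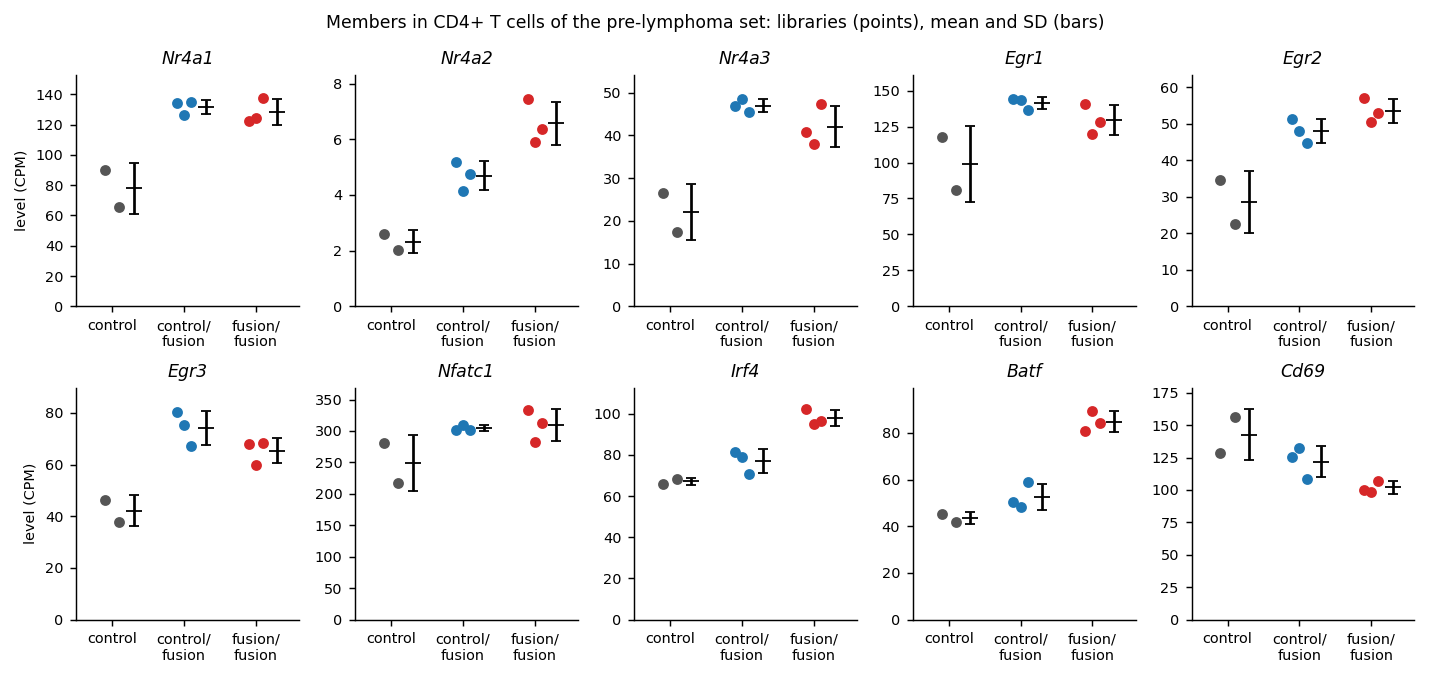
Level of each member in CPM (vertical axes, from 0) in the 2 control, 3 control/fusion and 3 fusion/fusion libraries of CD4+ T cells; points are libraries and bars give the mean and SD. The NR4A and EGR genes are raised in both fusion groups, Irf4 and Batf are highest in fusion/fusion cells, and Cd69 is lowest there.

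Counted over the members, 6 of 10 were higher and 0 lower in control/fusion than in control cells, while 11.6% of all 16257 genes tested were called higher and 8.70% lower. In fusion/fusion cells 9 of 10 were higher and 1 lower, against a background of 23.8% higher and 22.0% lower. Between the fusion groups 2 were higher and 0 lower, where 9.59% of genes were higher and 9.30% lower. The median log2 fold change of the 10 members over the control was 0.63 for control/fusion and 0.68 for fusion/fusion, beside medians of 0.00 and -0.01 over all genes, and -0.01 between the fusion groups. Both comparisons with the control use the same 2 control libraries. These differed from each other, TA019 being the lower in 8 of the 10 members. A fit without either leaves 1 control library, so only the size of the difference is given. Without TA019 the log2 fold change in control/fusion fell from 1.01 to 0.84 for Nr4a2 and from 0.51 to 0.26 for Egr1. In fusion/fusion cells it fell from 0.39 to 0.14 for Egr1 and from 0.31 to 0.13 for Nfatc1. Without TA018 that of Nfatc1 in control/fusion cells went from 0.29 to 0.47. The calls of Egr1 and Nfatc1 in fusion/fusion cells were lost without TA023 (adjusted p = 0.10 and 0.092) or TA025 (0.067 and 0.077). That of Egr1 in control/fusion was lost without TA021 (0.053).

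**Figure D2:**
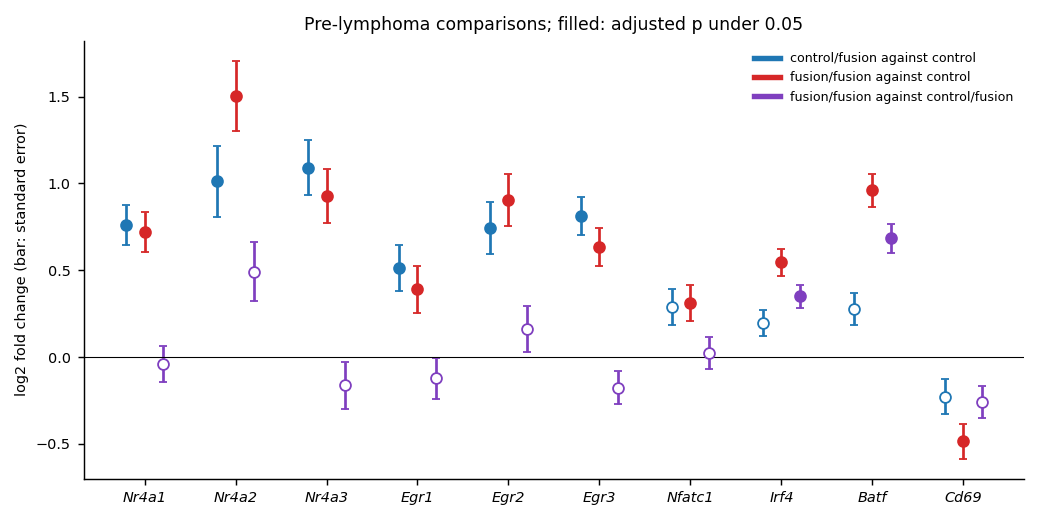
Log2 fold change of each member (vertical axis, bars are the SE) in the 3 comparisons of the pre-lymphoma set, with filled points at an adjusted p under 0.05. The purple points of the step between the fusion groups are filled for Irf4 and Batf alone, at 0.35 and 0.68.

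Other genes of the pathway were read from 6 lists, and their counts are set beside the shares of all genes called, 11.6% higher and 8.70% lower in control/fusion and 23.8% and 22.0% in fusion/fusion cells. Genes for activation and exhaustion that NFAT and NR4A factors are known to act on rose most widely, with 11 of 15 higher and 0 lower in control/fusion, 14 higher in fusion/fusion cells and 9 higher between the fusion groups. In control/fusion cells the largest changes were those of Tnfrsf9, the costimulator 4-1BB (1.49 ± 0.15), Il2, the T cell growth factor (1.47 ± 0.27), and Tox2, a factor of exhausted cells (1.01 ± 0.23). In fusion/fusion cells they were Tnfrsf9 (2.21 ± 0.15), Tigit (2.13 ± 0.22) and Pdcd1 (1.98 ± 0.28), the last a pair of inhibitory receptors. Between the fusion groups Il21 (1.38 ± 0.32), Tigit (1.27 ± 0.18) and Pdcd1 (1.09 ± 0.23) led. Of the partners of BATF and IRF4, 4 of 8 rose and 1 fell in control/fusion, and 3 rose and 2 fell in fusion/fusion cells. Maf, a factor of helper cytokine genes, rose by 0.81 ± 0.11 and 1.17 ± 0.11, Irf8, which dendritic cells also express, by 0.90 ± 0.16 and 1.15 ± 0.16, and Batf3 by 0.73 ± 0.19 in control/fusion cells, while Bach2, a repressor that keeps T cells naive, fell by 1.61 ± 0.12 in fusion/fusion cells.

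Counts of immediate early genes were near those shares. Of 18 tested, 3 rose and 0 fell in control/fusion cells, where Dusp1 (0.55 ± 0.14) and Dusp2 (0.40 ± 0.11), phosphatases of the MAP kinases, and the stress factor Atf3 (1.06 ± 0.32) passed. In fusion/fusion cells 5 rose and 3 fell, among them Ier3 (1.60 ± 0.35), Fosl2 (-0.46 ± 0.12) and Dusp1 (0.44 ± 0.14). Between the fusion groups 2 rose, Ier3 (1.13 ± 0.31) and Jund (0.48 ± 0.10), and 1 fell, Klf6 (-0.36 ± 0.07). The FOS and JUN genes were mixed, and they are given here after their values were seen. Fosl2, at -0.13 ± 0.12 in control/fusion cells, did not pass there. Fos (-0.08 ± 0.16), Fosb (-0.09 ± 0.19), Jun (0.20 ± 0.12), Junb (-0.07 ± 0.09) and Jund (-0.13 ± 0.11) did not pass in control/fusion cells (adjusted p = 0.27 to 0.85). In fusion/fusion cells Jun (0.40 ± 0.12, adjusted p = 0.022) and Jund (0.35 ± 0.11, 0.030) rose, while Fos (-0.13 ± 0.16), Fosb (0.13 ± 0.19) and Junb (0.13 ± 0.09) did not pass (adjusted p = 0.28 to 0.62). Of 7 heat shock genes, 0 passed in control/fusion cells and 5 fell in fusion/fusion cells. The most changed were Hspa1b (-2.13 ± 0.50), Hsph1 (-1.0 ± 0.13) and Dnajb1 (-0.88 ± 0.12). The part of cell handling in these values or in the members' levels was not tested.

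The calcium and calcineurin list, which holds the machinery upstream of NFAT, had a median log2 fold change of -0.04 for control/fusion and -0.10 for fusion/fusion. In control/fusion cells 3 of 16 fell and 0 rose, namely the calcium release channels Itpr2 (-0.30 ± 0.09) and Itpr3 (-0.29 ± 0.07) and the calcium channel subunit Orai2 (-0.25 ± 0.07). In fusion/fusion cells 6 fell and 2 rose, with Itpr2 at -0.83 ± 0.09, Itpr3 at -0.76 ± 0.07 and the calcineurin subunit Ppp3cc at 0.83 ± 0.10. Between the fusion groups 4 fell and 1 rose, and the 3 genes just named changed by -0.52 ± 0.08, -0.47 ± 0.06 and 0.84 ± 0.09. Among 8 EGR co-repressors and anergy genes, 1 fell in control/fusion cells, the diacylglycerol kinase Dgka (-0.53 ± 0.09). In fusion/fusion cells 3 rose and 3 fell, including Rnf128, the ubiquitin ligase GRAIL (1.58 ± 0.28), Dgka (-0.88 ± 0.09) and Ndrg1 (0.72 ± 0.14).

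Markers of other cells moved with the fusion groups. All 6 erythroid markers rose in both (sums of 45.4 and 106 CPM in the controls, 109 to 488 CPM in the fusion libraries). Of 6 dendritic cell markers, 6 rose for control/fusion and 4 for fusion/fusion (sums of 70.9 and 99.99 CPM against 175 to 240.0 CPM). Of 6 plasma cell markers, 5 rose in fusion/fusion cells (sums of 424 and 662 CPM against 1266 to 1460 CPM). Of 10 macrophage and monocyte markers 2 rose in each fusion group and 1 fell in fusion/fusion cells, with overlapping sums of 1899 and 2330 CPM against 2257 to 4806 CPM. NK cell markers rose for 1 of 5 genes in control/fusion and 3 of 5 in fusion/fusion cells, 1 of 6 neutrophil markers tested rose in fusion/fusion cells, 3 of 8 B cell markers fell in each, and neither CD8 marker passed. Of 8 T cell markers, 1 rose and 1 fell in control/fusion, and 3 rose and 1 fell in fusion/fusion cells. The part of these cells in the levels of Irf4, Batf or the NR4A and EGR genes, several of which myeloid and plasma cells also express, was not tested.

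In CD4+ cells of CD4-Cre tumors 0 of 10 members passed in edgeR, where 0.0168% of 17841 genes were called higher and 0.140% lower. At an unadjusted p under 0.05 there were 2 members, Batf and Egr1, where 15.1% of all genes were in either direction, and DESeq2 called 1, Batf, and 7.2% of all genes, so these counts are near the background. Batf was at 125, 112 and 116 CPM in the controls and at 393, 299.9, 701 and 140.1 CPM in the tumors VM388, VM58, VM645 and VM98. Every tumor lay above every control, with VM645 far the highest and VM98 close to the controls. The log2 fold change was 1.67 ± 0.48 (adjusted p = 0.17). It passed in DESeq2 (adjusted p = 0.0074), with no filter on low counts (0.014) and without VM98 (1.94, adjusted p = 0.033). Without the libraries numbered VM645 it was 1.18 ± 0.42 (adjusted p = 0.41). Egr1 was at 120.0, 104 and 83.8 CPM in the controls and 135, 292, 282 and 117 CPM in the same order of tumors. The groups overlapped slightly, since VM98 was below the control VM211, and the difference was 0.98 ± 0.37 (adjusted p = 0.27), or 0.65 ± 0.42 without VM645 (adjusted p = 0.65). Without VM645 0 members passed, and Nr4a3 differed by 0.39 ± 0.86 and Nr4a2 by 0.51 ± 0.56 (adjusted p = 0.92 and 0.82).

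In these CD4+ cells the SD in CPM was larger between the CD4-Cre tumors than between their controls for all members but Nfatc1 and Cd69. It was 236 against 6.75 CPM for Batf and 4.90 against 2.03 CPM for Nr4a2, whose mean was 9.65 against 4.68 CPM. Nr4a3 was at 6.91, 6.71 and 10.2 CPM in the controls and 13.3, 13.0, 32.7 and 1.44 CPM in the tumors. The tumor VM645 was the highest and VM98 the lowest of the 7 libraries, and the difference was 0.89 ± 0.80 (adjusted p = 0.66). Egr2 at 98.6 and 15.3 CPM and Egr3 at 11.8 and 0.591 CPM in VM645 and VM98 kept the same extremes. Nr4a1 was at 46.9, 98.6, 119 and 27.6 CPM in the tumors, against 73.2, 57.2 and 64.4 CPM in the controls. Nr4a2 was at 5.08, 13.7, 14.1 and 5.74 CPM against 6.89, 4.23 and 2.91 CPM, overlapping at the low end (1.01 ± 0.51, adjusted p = 0.40). Irf4 had its order turned, with VM98 highest at 62.7 CPM and VM645 lowest at 29.1 CPM. Nfatc1 (414 to 667 CPM in tumors, 289 to 605 CPM in controls) and Cd69 (119 to 168 CPM and 106 to 188 CPM) overlapped broadly. VM645 also had the highest sum of T cell markers (7532 CPM) and the lowest of macrophage and monocyte markers (491 CPM), and VM98 the most neutrophil markers (2003 CPM), with 46.0% of its entries not assigned to a gene. In this comparison 1 of 8 B cell and 1 of 10 macrophage and monocyte markers passed, both lower in the tumors. The part of these differences in the members' levels was not tested.

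In CD4-Cre spleens 0 members passed, 0 reached an unadjusted p under 0.05, beside 13.9% of all genes, and DESeq2 called 0, beside 4.3%, with 0% of 17050 genes called in either direction by edgeR. Nr4a2 was the 1 member whose tumors were all above the controls, at 3.12, 10.5 and 2.15 CPM in VM388, VM58 and VM98 against 2.13, 2.11 and 1.91 CPM, though VM98 exceeded the highest control by little. The difference was 1.40 ± 0.67 (adjusted p = 0.40). Cd69 was at 69.7, 115 and 53.3 CPM against 152, 113 and 151 CPM. The groups overlapped only through VM58, and the difference was -0.79 ± 0.34 (adjusted p = 0.36). VM58 was the highest tumor spleen in all members but Irf4, where it was the lowest at 26.6 CPM. It had 10.8 CPM of Egr3 against 1.75 and 2.01 CPM in the other tumors and 129.5 CPM of Egr1 against 40.05 and 20.2 CPM. The T cell markers summed to 1964 CPM in VM58 and to 922 and 877 CPM in VM388 and VM98, and whether this bears on its levels was not tested.

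In CD4-CreERT2 tumors, CD4+ cells were available from 2 mice, and 0 of 10 members passed, as did 0% of 17341 genes in each direction; 0 members reached an unadjusted p under 0.05 and DESeq2 called 0, beside 5.2% and 1.6% of all genes. The tumors differed sharply. Batf was at 474 CPM in VM231 and 102 CPM in VM236, against 123 and 186 CPM in the controls A1 and A3. One tumor thus lay above and the other below both controls. Nr4a2 was at 20.9 and 4.2 CPM against 3.75 and 8.61 CPM, and Cd69 at 323 and 102 CPM against 132 and 168 CPM, with the same tumor on top. Nfatc1, at 285 and 393 CPM against 445 and 537 CPM, and Irf4, at 17.4 and 34.2 CPM against 45.7 and 54.3 CPM, were below the controls in both tumors. Their differences were -0.52 ± 0.31 and -0.94 ± 0.40, and the adjusted p of all 10 members was 1.0. Without VM236, 1 tumor is compared with 2 controls, so only the size of the difference is given. In VM231 the log2 fold change was 0.74 for Nr4a1, 1.76 for Nr4a2, 1.63 for Batf and 1.12 for Cd69. It was -0.77 for Nfatc1 and -1.52 for Irf4. VM231 also held 5806 CPM of neutrophil markers, against 74.2 CPM in VM236 and 58.8 and 40.2 CPM in the controls. B cell markers summed to 197 and 1269 CPM in VM231 and VM236 against 2698 and 2553 CPM, plasma cell markers to 3494 and 1378 CPM against 6564 and 6637 CPM, and macrophage and monocyte markers to 3485 and 3909 CPM against 534 and 1066 CPM. Their part in the lower Nfatc1 and Irf4 or in the other values was not tested.

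In CD4-CreERT2 spleens 0 members passed, 2 reached an unadjusted p under 0.05 (Egr3 and Nfatc1) and DESeq2 called 1, Egr3, while edgeR called 0% of 16163 genes in either direction. Of all genes 20.1% were under that p and DESeq2 called 11.4%, so these counts are at the background. Nr4a1 was at 31.8, 73.6 and 2.54 CPM in the tumors VM231, VM236 and VM294, against 60.4, 53.4 and 53.5 CPM in the controls. VM294 stood far below the rest. The same library had 0.802 CPM of Egr2 where the others had at least 20.6 CPM, 7.42 CPM of Egr1, 48.4 CPM of Nfatc1 and no count of Nr4a2 or Egr3, for which 3 counts would be 0.201 CPM. It also held 67740 CPM of plasma cell markers, against 3153 and 7452 CPM in the other tumors and 2696 to 5758 CPM in the controls, and the part of this was not tested. Its Batf (87.7 CPM) and Nr4a3 (1.27 CPM) were not low, and its Irf4 (51.5 CPM) was the highest of the tumors, though below the controls. Egr3 was at 0.437, 0.345 and 0 CPM in the tumors and 0.970, 2.08 and 2.65 CPM in the controls, all tumors being below all controls. The difference was -2.76 ± 0.96 (adjusted p = 0.20; 0.024 in DESeq2), and -2.27 without VM294 (adjusted p = 0.10). Nfatc1 was at 204, 249.8 and 48.4 CPM against 449, 415 and 452 CPM, without overlap. Its difference was -1.38 ± 0.59 (adjusted p = 0.25), and -0.95 without VM294 (adjusted p = 0.085). Batf was above the controls in each tumor, at 115, 64.4 and 87.7 CPM against 44.2, 48.5 and 58.0 CPM (0.85 ± 0.37, adjusted p = 0.25). Egr1 and Irf4 were below the controls in each, by 0.93 ± 0.58 and 0.74 ± 0.43 on the log2 scale (adjusted p = 0.39 and 0.36). The B cell markers summed to 838, 5550 and 2558 CPM in the tumors and to 8352 to 8696 CPM in the controls, and neutrophil markers to 101200, 2371 and 55510 CPM against 344 to 793 CPM. B cells also express Egr1, Egr3, Nfatc1 and Irf4, and the part of the cell makeup was not tested. None of the 6 pathway lists had a member that passed in a tumor comparison.

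**Figure D3:**
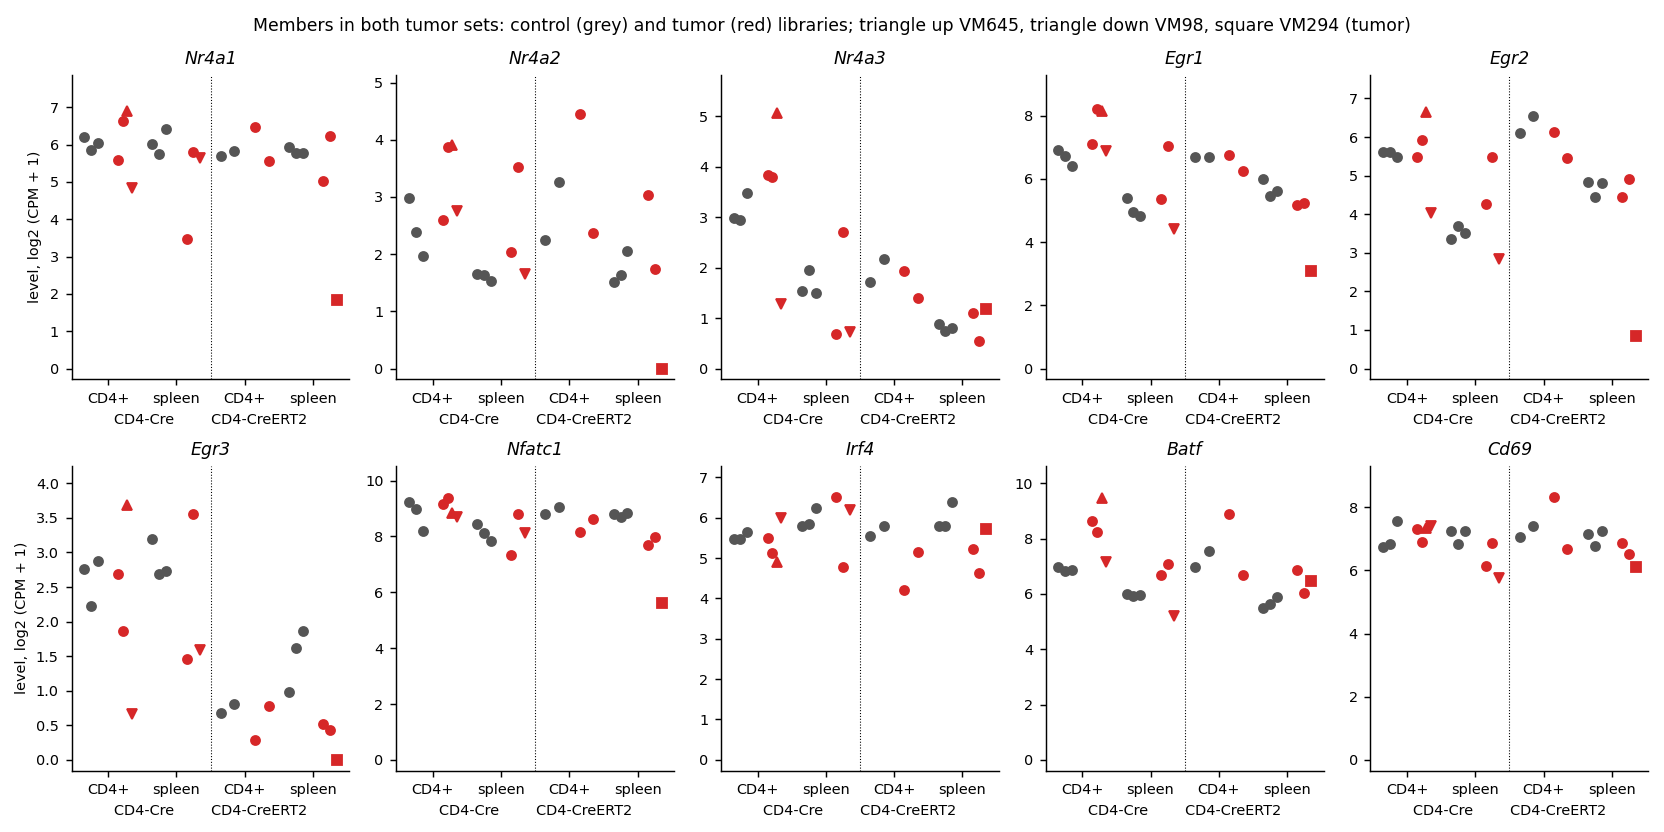
Levels of the members as log2 of CPM plus 1 (vertical axes) in the CD4-Cre and CD4-CreERT2 sets, by tissue; grey points are control and red points tumor libraries, with VM645, VM98 and VM294 marked. Batf is above the controls in all 4 CD4-Cre tumors of CD4+ cells, and VM294 lies far below the other spleens in Nr4a1, Egr1, Egr2 and Nfatc1.

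CD4+ cells were then compared with whole spleen of the same set. In CD4-Cre tumors Batf was the 1 member that passed, 2.07 ± 0.51 higher in CD4+ cells (adjusted p = 0.037), where 2.66% of 19503 genes were called higher and 2.67% lower. It was at 102, 136 and 36.0 CPM in the tumor spleens, below the lowest tumor library of CD4+ cells, 140.1 CPM. The call was lost in 10 of the 13 fits that left out 1 library, with adjusted p of 0.014 to 0.098 over all 13, and without the libraries numbered VM645 (1.60, adjusted p = 0.15). In these tumors 5 members reached an unadjusted p under 0.05, beside 22.2% of all genes. DESeq2 called 4, beside 13.9%, namely Batf, Nr4a3 (2.66, adjusted p = 0.015), Egr1 (1.65, 0.020) and Cd69 (0.89, 0.037). In CD4-Cre controls 0 members passed, with 1.16% of genes called higher and 0.323% lower. At an unadjusted p under 0.05 there were 2 members, beside 16.8% of all genes, and DESeq2 called 1, Egr2, beside 7.3%. With the mouse number as a block, since CD4+ cells and spleen of a number come from the same animal, Egr1 (1.65 ± 0.24, adjusted p = 0.0092), Egr2 (2.14 ± 0.22, 0.0042) and Batf (0.94 ± 0.19, 0.025) rose in CD4+ cells of the controls, where 874 of 19503 genes were higher and 699 lower. In the tumors Egr1 (1.81 ± 0.25, adjusted p = 0.0075), Egr2 (1.01 ± 0.22, 0.033) and Batf (1.69 ± 0.19, 0.0057) passed with the block, where 776 genes were higher and 621 lower.

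Egr2 in the CD4-Cre controls was at 47.7, 48.2 and 43.8 CPM in CD4+ cells of VM211, VM216 and VM645 and at 9.31, 11.97 and 10.4 CPM in their spleens, and Egr1 at 120.0, 104 and 83.8 CPM against 41.3, 29.6 and 27.3 CPM. In every one of the 3 mice both genes were higher in the CD4+ cells. Nr4a1 did not share this, at 73.2, 57.2 and 64.4 CPM against 63.6, 52.7 and 85.1 CPM (-0.05 ± 0.58, adjusted p = 0.98). In the CD4-CreERT2 set 0 members passed in controls or in tumors and 0% of 18529 genes were called in any direction, with or without the block; 2 and 3 members reached an unadjusted p under 0.05, beside 5.5% and 10.6% of all genes, and DESeq2 called 0, beside 1.2% and 3.9%. There Batf was at 123 and 186 CPM in CD4+ cells and 44.2 to 58.0 CPM in spleens of the controls, and Egr2 at 68.3 and 91.9 CPM and 20.7 to 27.4 CPM, both without overlap. A different tumor effect in CD4+ cells than in spleen was tested as an interaction, and 0 members and 0% of genes passed in either set; 1 member, Cd69 in the CD4-Cre set (0.97 ± 0.41, adjusted p = 0.68), was under 0.05 before adjustment, and with DESeq2 0 members passed.

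Pathway genes that passed between CD4+ cells and spleen were all in the CD4-Cre set. In its controls 2 of 15 activation and exhaustion genes, 1 of 9 anergy genes and 1 of 8 BATF and IRF4 partners were higher. Of all genes 1.16% were higher and 0.323% lower there. In its tumors 3 of 15, 0 of 9 and 1 of 8 were higher. Lower there were 2 of 18 immediate early genes, 1 of 16 calcium genes and 2 of 8 partners, beside 2.66% of all genes higher and 2.67% lower. In CD4-Cre controls Cd40lg, the helper signal to B cells (3.24 ± 0.68), Tox (2.55 ± 0.55), Maf (2.33 ± 0.45) and Rnf128 (1.68 ± 0.38) were higher in CD4+ cells. In the tumors Ctla4 (2.87 ± 0.62), Il2ra (2.83 ± 0.63), Icos (2.53 ± 0.59) and Maf (2.44 ± 0.44) were higher and Klf4 (-2.81 ± 0.66), Bach2 (-2.53 ± 0.52), Atf3 (-2.13 ± 0.49), Irf8 (-1.64 ± 0.37) and Ppp3ca (-1.54 ± 0.33) lower. Whole spleen also holds B and myeloid cells, so cell makeup and level per cell cannot be told apart in these differences.

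Across the 11 groups the members differed in where they were highest. Sets were scaled separately, and set and group cannot be told apart in gaps between sets, even large ones. Control CD4+ cells alone differed between the pre-lymphoma, CD4-Cre and CD4-CreERT2 sets. Their group means were 42.2, 5.26 and 0.671 CPM for Egr3 and 43.6, 118 and 155 CPM for Batf. The orders below therefore describe the libraries only. Nr4a1 was highest in control/fusion and fusion/fusion cells, at 132 ± 4.65 (SD, n = 3) and 128 ± 8.30 CPM (n = 3), and lowest in CD4-CreERT2 tumor spleen, at 36.0 ± 35.7 CPM (n = 3). Nr4a3 ran from 47.0 ± 1.56 CPM (n = 3) in control/fusion cells to 0.748 ± 0.0827 CPM (n = 3) in CD4-CreERT2 control spleen. Egr3 ran from 74.2 ± 6.65 CPM (n = 3) in control/fusion cells to 0.261 ± 0.230 CPM (n = 3) in CD4-CreERT2 tumor spleen. Its gene model in the CD4-CreERT2 tables covers 1416 exon bases and ends before that of GENCODE M21, and the part of this in its level there was not tested. Egr3 was also low in the CD4-Cre set, at 4.85 to 6.42 CPM in group means. Batf was highest in CD4+ cells of CD4-Cre tumors, at 384 ± 236 CPM (n = 4), followed by those of CD4-CreERT2 tumors, at 288 ± 263 CPM (n = 2), and lowest in the pre-lymphoma controls, at 43.6 ± 2.44 CPM (n = 2).

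Egr1 was highest in CD4+ cells of CD4-Cre tumors (206 ± 93.2 CPM, n = 4) and lowest in CD4-CreERT2 tumor spleen (26.6 ± 16.6 CPM, n = 3). Egr2 was highest in CD4+ cells of CD4-CreERT2 controls (80.1 ± 16.7 CPM, n = 2) and lowest in CD4-Cre control spleen (10.6 ± 1.34 CPM, n = 3). Irf4 led in fusion/fusion cells (98.0 ± 3.92 CPM, n = 3) and was lowest in CD4+ cells of CD4-CreERT2 tumors (25.8 ± 11.9 CPM, n = 2). Nr4a2 (12.5 ± 11.8 CPM, n = 2) and Cd69 (212 ± 156 CPM, n = 2) were highest in CD4+ cells of CD4-CreERT2 tumors, on the strength of VM231, and lowest in CD4-Cre spleen, of controls for Nr4a2 (2.05 ± 0.125 CPM, n = 3) and of tumors for Cd69 (79.3 ± 31.9 CPM, n = 3). Nfatc1 ran from 526 ± 114 CPM (n = 4) in CD4+ cells of CD4-Cre tumors to 167 ± 106 CPM (n = 3) in CD4-CreERT2 tumor spleen. Of the 100 pairs of neighbours in these orders, 84 had overlapping library values, so most single steps are within the spread. All 10 neighbour pairs of Nr4a2 overlapped, as did 9 of 10 for Nr4a1, Egr1, Egr2, Nfatc1 and Cd69. Steps without overlap were 3 each for Nr4a3, Egr3 and Irf4 and 2 for Batf.

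Lengths are those of the CD4-CreERT2 tables; the gene models behind the other tables are not stated, and for Egr3, whose model there is short, the value per length and its rank are uncertain. Per kilobase of exon, the pre-lymphoma controls held most of Batf (45.6 ± 2.56 CPM per kb, SD, n = 2), then Nfatc1 (33.5 ± 6.01), Nr4a1 (31.4 ± 6.83) and Egr3 (29.8 ± 4.2). Egr1 (22.1 ± 5.86), Cd69 (21.9 ± 3.02) and Irf4 (14.2 ± 0.327) came next, and Egr2 (8.41 ± 2.53), Nr4a3 (3.68 ± 1.09) and Nr4a2 (0.573 ± 0.10) were lowest. In CD4+ cells of CD4-Cre tumors Batf, at 402 ± 247 CPM per kb (n = 4), exceeded every other member, the next being Nfatc1 at 70.8 ± 15.4. Nr4a3 at 2.52 ± 2.16 and Nr4a2 at 2.38 ± 1.21 CPM per kb were the lowest there.

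Finally, log2 CPM of each member, centred within set and tissue, was correlated with that of 10572 other genes over the 31 libraries. These include pairs from the same mice and contain the group differences, so the coefficients describe these libraries and carry no p. Among the members, Nr4a2 and Egr2 (r = 0.845) and Egr1 and Egr2 (0.861) were closest over all libraries. Much of this rested on VM294: without it, an alternative added after the values were seen, r fell from 0.739 to 0.326 for Nr4a1 with Egr2, from 0.680 to 0.223 for Nr4a1 with Nr4a2 and from 0.656 to 0.137 for Nr4a2 with Nfatc1, while Egr1 with Egr2 stayed at 0.768. In the 19 CD4+ libraries alone Nr4a3 and Egr2 (0.934), Nr4a1 and Egr2 (0.879), Nr4a1 and Nr4a3 (0.839), Nr4a3 and Egr3 (0.800) and Nr4a2 and Batf (0.799) were closest. Irf4 was negatively correlated with each NR4A gene there (-0.492 to -0.326) and with Batf (-0.462). The tumors VM645 and VM98 were the highest and lowest CD4-Cre libraries of CD4+ cells in Nr4a1, Nr4a3, Egr2 and Egr3. How far r in the CD4+ libraries rests on them was not tested.

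**Figure D4:**
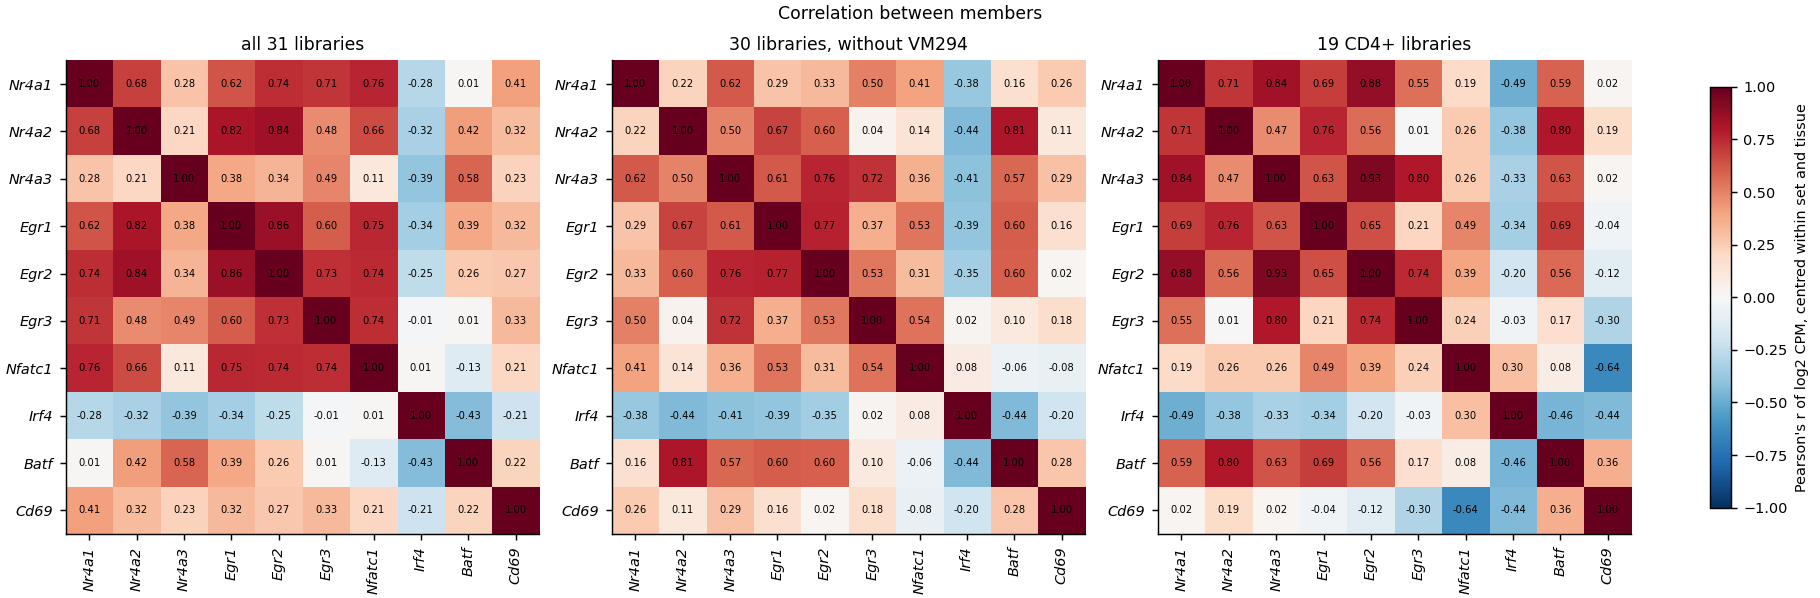
Pearson's r between members (rows and columns; colour scale from -1 to 1) over 31 libraries, over 30 without VM294 and over 19 CD4+ libraries, on log2 CPM centred within set and tissue. Nr4a3, Egr2 and Nr4a1 form the warmest block in the CD4+ libraries, with r of 0.839 to 0.934, and the row of Irf4 is negative against the NR4A genes in all 3 panels.

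The genes most like each member over all 31 libraries were as follows, with r without VM294 in second place. For Batf they were the chemokine receptor Ccr8 (0.913, 0.926), the costimulator Tnfrsf4 (0.897, 0.910) and the cytokine Mif (0.896, 0.902). In the CD4+ libraries the closest to Batf were the glycolytic enzymes Tpi1 (0.978), Pgk1 (0.976) and Pgam1 (0.972). For Irf4 they were Trp53inp1 (0.844, 0.845) and the mitochondrial transcripts mt-Nd6 (0.816, 0.815) and mt-Co2 (0.815, 0.825). For Nr4a3 they were Apol9b (0.779, 0.791), Arid5b (0.753, 0.781) and the interferon-induced Gbp3 (0.745, 0.816). These did not lean on VM294.

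For the other members r was lower without VM294, except Cop1 for Cd69. Nr4a1 was close to Pcbp3 (0.905, 0.768) and Pisd (0.882, 0.684), and Nr4a2 to the antigen peptide transporter Tap1 (0.932, 0.834), Gdpd5 (0.924, 0.851) and Plod2 (0.923, 0.823). Egr1 was closest to Ralgds (0.898, 0.826), Dclk2 (0.898, 0.828) and the DNA methyltransferase Dnmt3a (0.885, 0.809). Egr2 was closest to Arc, an early gene best known from neurons (0.933, 0.802), Smyd5 (0.928, 0.784) and Tmem173, which encodes STING (0.925, 0.842). Egr3 was closest to Ovca2 (0.860, 0.776), Snx33 (0.846, 0.750) and the NF-kB subunit Relb (0.846, 0.752), and Nfatc1 to Myo1c (0.929, 0.807), Iqsec1 (0.918, 0.787) and Mrgpre (0.917, 0.769). Cd69 was closest to Abhd17c (0.745, 0.71), Cop1 (0.736, 0.780) and Ube3c (0.732, 0.713).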

How the data were processed

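Bulk polyA RNA was measured in 31 libraries, with RNA from the RNeasy Micro kit, SMART-Seq v4 cDNA and Nextera XT libraries, per the labels' protocols. The authors deposited raw gene counts, made with HISAT2 2.1.0 and HTSeq 0.5.4 on mm10, with GRCm38 also named for part of the libraries, per the submitters' processing notes. The CD4-CreERT2 tables differ in layout from the others, with gene positions and lengths and no rows of unassigned reads. Whether the same program counted all sets cannot be told from this. The annotation is not given in the sources used here. The pre-lymphoma and CD4-Cre tables list 55276 symbols; of 49315 Ensembl genes in the CD4-CreERT2 tables, 48970 were matched to a symbol. Rows of reads not assigned to a gene, 27.2% to 46.0% of the entries where given, were left out of library sizes and tests.

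Genes were filtered with filterByExpr, scaled by TMM and tested, two-sided, by edgeR 4.0.16 (quasi-likelihood, R 4.3.3). P-values were adjusted by Benjamini-Hochberg across every gene in the fit, and a gene passed under 0.05. The SE is the size of the log2 fold change over the square root of F. The 3 pre-lymphoma groups shared 1 fit, tumors and controls of a tissue were fitted alone, and tissues were compared in 1 fit per set. Levels are CPM with TMM over the set, and exon lengths came from the CD4-CreERT2 tables. Correlations used log2 CPM with a prior count of 2. The code was checked on simulated data. Alternatives were RLE scaling, scaling that omits haemoglobin, mitochondrial, T cell receptor and immunoglobulin genes, no filter, DESeq2 1.42.0, other groups in or out of the fit, the mouse number as a block, omission of VM645, and of each library in turn. Libraries of 10 mice were paired over tissues by the animal's number in the labels, and deviations from the group means correlated within mice at r of 0.158 to 0.440.

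The text names all 10 members, up to 3 genes per pathway list that passed with the largest change at a mean log2 CPM of at least 1, and the 3 genes most correlated with each member, other than pseudogenes, unnamed models and antigen receptor segments. One gene that this rule names is not reported here. The members and the lists were chosen with earlier results of these data known. Reads carry no molecular identifiers, so the 3-count floor covers counting error only.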

Additional observations from a re-analysis of the deposited data

How the results depend on the processing

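All 19 member results that passed kept their direction under each alternative tried. In 96 recomputations with another setting 2 lost the call. Calls of Egr1 and Nfatc1 over the pre-lymphoma controls and of Batf between CD4-Cre tumor tissues were also lost when 1 library was left out. Of 604 recomputations with another setting of results that had not passed, 22 passed and 21 changed sign without passing. Some fits that left out 1 library leave 1 library in a group, so no totals are given for fits of that kind. With no filter on low counts 8 members were higher (Nfatc1 and Batf added) and 1 lower in control/fusion than control, 1 was lower in fusion/fusion than control/fusion, 1 was higher in CD4+ cells of CD4-Cre tumors, and 2 (controls) and 3 (tumors) were higher in CD4-Cre CD4+ cells than spleen. Of all 30087 genes tested with no filter, 2454 were higher and 1682 lower in control/fusion than control, and 1860 and 1985 between the fusion groups. In CD4+ cells of CD4-Cre tumors they were 261 and 397 of 40042. Between CD4-Cre CD4+ cells and spleen they were 439 and 264 of 41555 in controls and 648 and 1041 in tumors. Leaving out the filter moved the median log2 fold change over all genes by over 0.1 in 4 comparisons, each with a tumor group. With DESeq2 the counts of members, in the same order, were 7, 0, 1, 1, 1 and 4, and 1 member was lower in CD4-CreERT2 tumor spleens. Of all genes DESeq2 called 19.2% in control/fusion against control, 17.5% between the fusion groups and 7.2% in CD4+ cells of CD4-Cre tumors. It called 7.3% (controls) and 13.9% (tumors) between CD4-Cre CD4+ cells and spleen, and 11.4% in CD4-CreERT2 tumor spleens. With the mouse number as a replicate block 3 members were higher in CD4-Cre CD4+ cells than spleen in controls and 3 in tumors, while calls over all genes went from 227 higher and 63 lower to 874 and 699 in controls and from 519 and 520 to 776 and 621 in tumors; the block changed no other call. Without the libraries numbered VM645 0 were higher in the tumors. The cause was not tested.

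Among fits that left out 1 library each, those without TA018 or TA019 leave 1 control library, so no counts are given for them. Without TA021 Egr1 lost its call and Batf gained one in control/fusion against control, and Irf4 gained one without TA022. In fusion/fusion against control Egr1 and Nfatc1 lost their calls without TA023 or TA025. Members lower ranged from 0 to 1 in fusion/fusion against control/fusion. Higher counts were 0 to 1 in CD4+ cells of CD4-Cre tumors. Each such fit in CD4+ cells of CD4-CreERT2 tumors leaves 1 library in a group, so no counts are given for them. In CD4-Cre tumors 0 to 5 were higher and 0 to 1 lower in CD4+ cells than spleen, the highest counts without the spleen library of VM58. The shares of all genes called in these fits are not given here, so the counts are not read as particular to the members. No paired analysis was possible between tumor and control because these groups share 1 number at most. Levels under 1 CPM, those of Egr3 and Nr4a3 in the CD4-CreERT2 set among them, rest on few counts.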
